A study of Mus musculus with 10 samples.

Results

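The 10 lysosomal cathepsin genes Ctsa, Ctsb, Ctsc, Ctsd, Ctse, Ctsh, Ctsk, Ctsl, Ctss and Ctsz were followed through an RNA-seq experiment on acute mental stress in mice. They were chosen by symbol from a count table of 48526 genes, and all 10 had reads and passed the low-count filter, which left 13334 genes for testing. The table holds 5 libraries from stressed and 5 from non-stressed mice, both of the strain labelled ApoE. Stress was applied for 3 h on each of 3 consecutive days before the aortae were removed, and the sorted cells are labelled aortic endothelial cells. The labels give neither the age of the animals, nor any genotype beyond that name, nor whether 1 library is 1 animal or a pool, so the p-values measure the spread between these libraries.

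Cathepsins are the proteases of the lysosome. They are made as inactive precursors, carried to the lysosome by mannose 6-phosphate receptors, activated at acid pH, and held in check outside it by cystatins. The cysteine cathepsins (B, C, H, K, L, S and Z) are relatives of papain, cathepsins D and E are aspartic proteases, and cathepsin A is a serine carboxypeptidase. In antigen-presenting cells they digest engulfed protein and trim the invariant chain of MHC class II, and in atherosclerotic arteries macrophages release some of them into the matrix.

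The libraries carried few of the transcripts that their label would call for. Of 15 endothelial markers, 5 were counted in every library, Tek, Emcn and Cldn5 had 0 reads in all of them, and the summed level was 103 to 187 CPM (reads of a gene per 1000000 counts) in non-stressed and 107 to 161 CPM in stressed libraries. Of 14 monocyte and macrophage markers, 13 were counted in every library, with sums of 22269 to 34307 CPM and 26937 to 34232 CPM. Total counts per library were 18020220 to 38237346, so that 3 counts, the limit that a count of 0 allows, stand for 0.0785 to 0.166 CPM (counting error only). In 4 libraries, 2 per group, Xist was counted at high levels and Ddx3y had 0 reads; the other 6, 3 per group, each had over 100 reads of Ddx3y, a gene of the Y chromosome. These are called the Xist and the Ddx3y libraries below.

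No cathepsin was called different between stressed and non-stressed libraries. None of the 10 genes passed the threshold of edgeR's quasi-likelihood test (adjusted p under 0.05 over all genes), where 0.0075% of all genes tested did. Ctsl, the lysosomal endopeptidase cathepsin L, had the smallest p of the 10, at 1.41-fold the non-stressed level. Ctsa, the carboxypeptidase that also protects lysosomal neuraminidase, stood at 1.12-fold, and these were the 2 cathepsins without overlap between the groups, every stressed library being higher than any non-stressed one; 0.547% of all genes tested were so separated in that direction. At an unadjusted p under 0.05 there were 3 of 10, Ctsl, Ctsa and Ctsd, all higher in the stressed libraries, against 2.59% of all genes tested in that direction; none was lower, against 2.95%. DESeq2 placed 0 of 10 past its adjusted threshold, where 0.114% of the 16598 genes it tested passed, and limma-voom 0 of 10, where 0.015% of the 13334 genes passed.

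The 10 genes together took 0.697% to 0.777% of the counts of a library, with means of 0.732 ± 0.0249% without stress and 0.752 ± 0.0147% with it (SD, n = 5 each). Levels of different genes are compared below per length, as TPM computed from the counts and the union of a gene's exons in GENCODE M21. Ctss, which encodes cathepsin S, an endopeptidase of antigen-presenting cells that stays active at neutral pH, was far above the rest. It stood at 5634 ± 307 TPM (SD, n = 10), with 8 of the tested genes above it, and made up 51.6% to 58.8% of the cathepsin TPM of a library. Ctsz (cathepsin Z, a carboxypeptidase) followed at 1507 ± 102 TPM (SD, n = 10) and Ctsb (cathepsin B) at 1189 ± 152 TPM (SD, n = 10). Ctsz was above Ctsb in all 10 libraries, but the 2 ranges overlapped.

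Below them came Ctsa at 654 ± 40.2 TPM (SD, n = 10) and then a pair that could not be ordered: Ctsc at 443 ± 46.3 TPM and Ctsh at 422 ± 36.2 TPM (SD, n = 10 each), with Ctsc above Ctsh in 6 of 10 libraries. Ctsd, the main aspartic protease of lysosomes, had 269 ± 48.1 TPM (SD, n = 10). A gap followed. Ctse, the other aspartic protease, stood at 24.1 ± 5.71 TPM (SD, n = 10), Ctsl at 18.1 ± 3.87 TPM (SD, n = 10) and Ctsk, the collagen-degrading protease of osteoclasts, at 3.68 ± 1.72 TPM (SD, n = 10). Ctse was above Ctsl in 8 of 10 libraries and their ranges overlapped. The levels thus ran over orders of magnitude, and 7 of the 10 genes, Ctsd the lowest of them, lay above at least 95.6% of the tested genes, while Ctse, Ctsl and Ctsk lay above 58.1%, 51.6% and 23.4% of them.

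The length chosen for a gene moves part of this order. With the longest transcript, Ctsb (1176 TPM) and Ctsz (1169 TPM) changed places. Per kilobase of the shortest transcript that APPRIS marks as principal, Ctsl (17.4 ± 3.90 CPM per kilobase, SD, n = 10) lay above Ctse (10.5 ± 2.35), and Ctsh (343) and Ctsc (302) above Ctsa (247). Ctss was first, Ctsd seventh and Ctsk last under all 3 lengths.

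**Figure D1:**
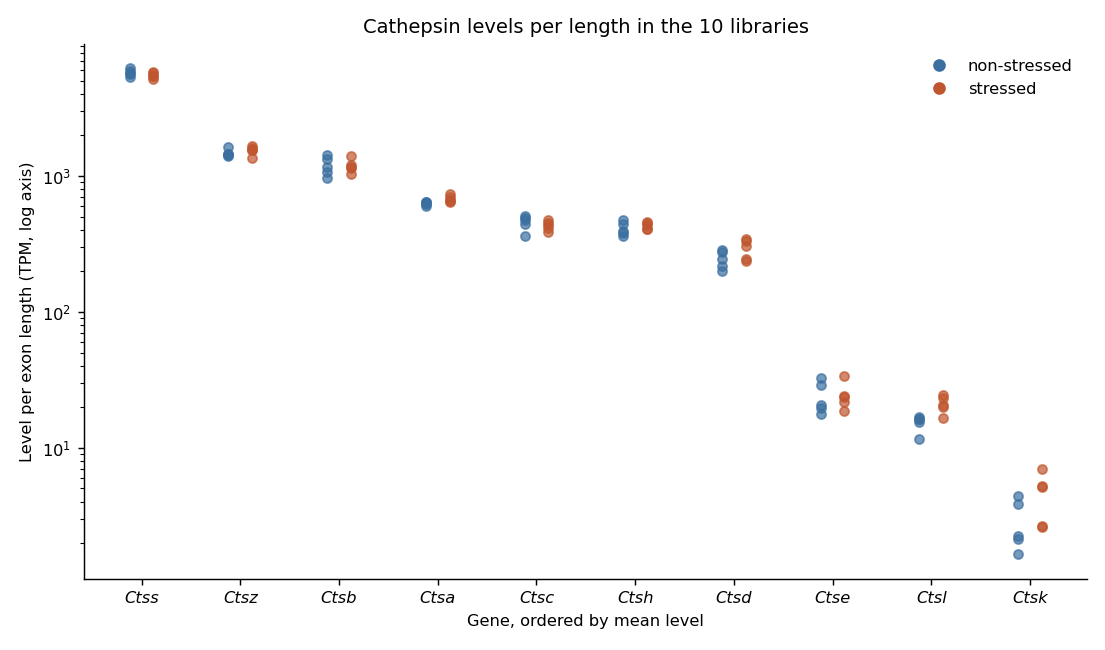
Level per length (TPM, log axis) of each cathepsin gene, ordered by its mean, with 1 point for each of 5 non-stressed (left, blue) and 5 stressed (right, orange) libraries. Ctss sits at 5141 to 6204 TPM, and a gap separates Ctsd, at 201 to 342 TPM, from Ctse, at 17.6 to 33.6 TPM.

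How reads were assigned limits these levels for some of the genes. Ctsd shares 808 exonic bases with Gm49369 on the same strand, 32.4% of the 50-base stretches of its transcripts are also in those of Gm49369, and that gene had 0 reads in all libraries; how reads in the shared exons were assigned is not given in the sources used here. Ctsl overlaps the antisense gene Gm47123 and the pseudogene Gm49230, and 26.3% of its 50-base stretches are also in transcripts of other genes, most of them in Gm47123. Neither Gm47123 nor Gm49230 was found by symbol in the count table, so a loss of Ctsl reads to them is not shown. Ctsa overlaps exons of Pltp (63.1 to 186 CPM) and Neurl2 on the other strand, and Ctsb those of Fdft1 (4.96 to 10.3 CPM). Ctss, Ctse and Ctsk overlap no other gene's exons and share no 50-base stretch with one.

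Among the cysteine endopeptidases, Ctsl had the smallest p. In mm10 it spans 64359337 to 64370890 on the minus strand of chromosome 13 (ENSMUSG00000021477). On the scale of CPM with TMM-scaled library sizes, which is used for all comparisons between libraries below, its 5 non-stressed libraries (replicates 1 to 5) held 30.7, 30.7, 30.3, 22.0 and 29.0 CPM and the 5 stressed ones 37.2, 43.2, 48.0, 31.8 and 40.7 CPM. The non-stressed values lay close together apart from replicate 4, which was below them, and the stressed values were spread over a wider range. The means were 28.5 ± 3.71 CPM and 40.2 ± 6.11 CPM (SD, n = 5 each), a log2 fold change of 0.49 (SE 0.13, 95% interval 0.21 to 0.78, unadjusted). In edgeR its p of 0.00231 ranked 41st of the 13334 genes and its adjusted p was 0.684.

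The gap between the groups in Ctsl is narrow. Its highest non-stressed library, replicate 1, held 754 reads, or 30.7 CPM with an exact Poisson 95% interval of 28.6 to 33.0, and its lowest stressed library, replicate 4, held 961 reads, or 31.8 CPM with an interval of 29.8 to 33.9. The 2 libraries at the gap therefore cannot be ordered at this depth. Within the Xist libraries the groups differed by 0.38 on the log2 scale and within the Ddx3y libraries by 0.55. Without non-stressed replicate 4 the fold change was 0.41, the lowest of the 10 fits that each leave out 1 library. All 7 erythroid markers were higher in the stressed libraries, as were 50.9% of all genes tested. Of the 7, 5 had an unadjusted p under 0.05 in edgeR, against 2.59% of all genes tested in that direction, and 0 passed the adjusted threshold. Their mean log2(CPM + 1) was 6.20 ± 0.402 in non-stressed and 6.83 ± 0.871 in stressed libraries (SD, n = 5 each). They summed to 1333 to 2781 CPM and 1172 to 5528 CPM. With the erythroid marker level as a covariate the value for Ctsl was 0.36 (SE 0.14), and the part of erythroid cells in the result was not tested. In bulk samples such as these, fewer cells of a type and less RNA per cell cannot be told apart.

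Ctss (ENSMUSG00000038642, chromosome 3 from 95526786 to 95556403, plus strand) did not pass the test and its values overlapped. Non-stressed libraries held 2155, 2457, 2214, 2362 and 2100.0 CPM and stressed ones 2008, 2143, 2371, 2332 and 2219 CPM. The log2 fold change was -0.03 (SE 0.06, 95% interval -0.16 to 0.11, adjusted p = 0.988), and its sign turned without stressed replicate 1. The coefficient of variation was 6.56% in the non-stressed and 6.62% in the stressed group.

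Ctsb (ENSMUSG00000021939, chromosome 14 from 63122462 to 63145923, plus strand), an abundant endopeptidase that can also remove dipeptides, ran from 1721 to 2435 CPM in non-stressed libraries (median 2045) and from 1859 to 2436 CPM in stressed ones (median 2107). The groups overlapped almost completely, with a log2 fold change of 0.03 (SE 0.09, 95% interval -0.17 to 0.23, adjusted p = 0.993). Its sign turned when non-stressed replicate 4 or 5 or stressed replicate 1 was left out. Ctsk (ENSMUSG00000028111, chromosome 3 from 95499256 to 95509362, plus strand) was the least counted, with 409 reads over all libraries. Its values were 1.63, 0.991, 0.708, 0.949 and 1.91 CPM in non-stressed and 2.26, 3.06, 2.34, 1.19 and 1.19 CPM in stressed libraries. Stressed replicates 1, 2 and 3 were above every non-stressed library, and stressed replicates 4 and 5 were within their range. The log2 fold change of 0.70 (SE 0.56, 95% interval -0.50 to 1.89, adjusted p = 0.950) was the largest of the 10 and the least precise. The groups differed by -0.09 within the Xist libraries and by 1.16 within the Ddx3y libraries. An interaction of stress with this split was fitted in edgeR for every cathepsin after the data were seen. For Ctsk it was 1.35 (SE 1.14, unadjusted p = 0.259), so the 2 differences were not resolved from each other. Of 9 osteoclast markers 6 were counted in every library and 2, Calcr and Oscar, in none; they summed to 266 to 501 CPM in non-stressed and 291 to 479 CPM in stressed libraries, and their part was not tested.

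The cysteine exopeptidase genes Ctsc, Ctsh and Ctsz lay close to the non-stressed level. Ctsc (ENSMUSG00000030560, chromosome 7 from 88278085 to 88310888, plus strand) encodes the dipeptidyl peptidase that activates the granule serine proteases of neutrophils, mast cells and cytotoxic lymphocytes. It held 589, 835, 783, 864 and 747 CPM in non-stressed and 695, 793, 680, 745 and 795 CPM in stressed libraries. Non-stressed replicate 1 was the lowest of all 10 libraries and non-stressed replicate 4 the highest, so the stressed values all fell inside the non-stressed range. Its log2 fold change was -0.04 (SE 0.09, 95% interval -0.24 to 0.16, adjusted p = 0.987), and its sign turned without non-stressed replicate 4. Its difference was positive within the Xist libraries (0.16) and negative within the Ddx3y libraries (-0.17), and a test of that interaction in edgeR gave an unadjusted p of 0.0793 and an adjusted p of 1.0.

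Ctsh (ENSMUSG00000032359, chromosome 9 from 90054152 to 90076089, plus strand), an aminopeptidase, held 463 to 624 CPM (median 510) in non-stressed and 527 to 617 CPM (median 596) in stressed libraries. Its 2 lowest libraries were non-stressed replicates 1 and 2, but non-stressed replicate 4 was above all stressed ones. The log2 fold change was 0.11 (SE 0.08, 95% interval -0.07 to 0.29, adjusted p = 0.950), and it ran from 0.06 without non-stressed replicate 1 to 0.17 without non-stressed replicate 4. Adjusted for neutrophil markers it was 0.19 (SE 0.06, adjusted p = 0.231 in edgeR, the lowest of its alternatives), and adjusted for erythroid markers 0.17. Ctsz (ENSMUSG00000016256, chromosome 2 from 174427493 to 174439039, minus strand) held 585 to 662 CPM (median 605) and 569 to 706 CPM (median 674). Stressed replicates 3, 4 and 5 were above every non-stressed library and stressed replicate 2 was below all of them. The log2 fold change was 0.11 (SE 0.07, 95% interval -0.04 to 0.25, adjusted p = 0.948).

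The aspartic proteases were Ctsd and Ctse. Ctsd (ENSMUSG00000007891, chromosome 7 from 142375911 to 142388038, minus strand) held 190.1, 168, 187, 150.2 and 136 CPM in the non-stressed libraries and 226, 232, 216, 164 and 173 CPM in the stressed ones. Stressed replicates 1, 2 and 3 stood above all non-stressed libraries, and stressed replicates 4 and 5 lay among them. Replicates 4 and 5 were the lowest of the non-stressed group as well. The means were 166 ± 23.4 CPM and 202 ± 31.6 CPM (SD, n = 5 each), a ratio of 1.22. In edgeR the log2 fold change was 0.28 (SE 0.12, 95% interval 0.03 to 0.53, unadjusted p = 0.0296, adjusted p = 0.874). Ctsd differed by 0.30 within the Xist libraries and by 0.26 within the Ddx3y libraries, and by 0.15 with the erythroid marker level as a covariate.

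Ctse (ENSMUSG00000004552, chromosome 1 from 131638306 to 131675505, plus strand), an endosomal protease known from gastric, lymphoid and red blood cells, held 29.1, 18.9, 26.2, 18.4 and 16.1 CPM in non-stressed and 30.7, 22.1, 20.9, 22.3 and 17.9 CPM in stressed libraries. Replicate 1 was the highest and replicate 5 the lowest in both groups, and the groups overlapped (log2 fold change 0.07, SE 0.19, 95% interval -0.33 to 0.47, adjusted p = 0.991). The sign of Ctse turned without non-stressed replicate 5 and without stressed replicate 1.

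The serine carboxypeptidase gene Ctsa (ENSMUSG00000017760) lies on chromosome 2 from 164832873 to 164841032, plus strand. Non-stressed libraries held 853, 855, 866, 833 and 855 CPM, the tightest group of the family with a coefficient of variation of 1.40%. Stressed libraries held 877, 954, 1058, 926 and 939 CPM, a coefficient of variation of 7.02%, with replicate 3 the highest. The means were 852 ± 11.9 CPM and 951 ± 66.7 CPM (SD, n = 5 each). In edgeR this was a log2 fold change of 0.16 (SE 0.06, 95% interval 0.03 to 0.28, unadjusted p = 0.0183, adjusted p = 0.874). The groups stayed apart under plain, TMM, RLE and upper-quartile scaling. The nearest libraries, non-stressed replicate 3 (866 CPM, Poisson interval 856 to 875) and stressed replicate 1 (877 CPM, 864 to 889), cannot be ordered at this depth. Ctsa differed by 0.09 within the Xist libraries and by 0.19 within the Ddx3y libraries.

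**Figure D2:**
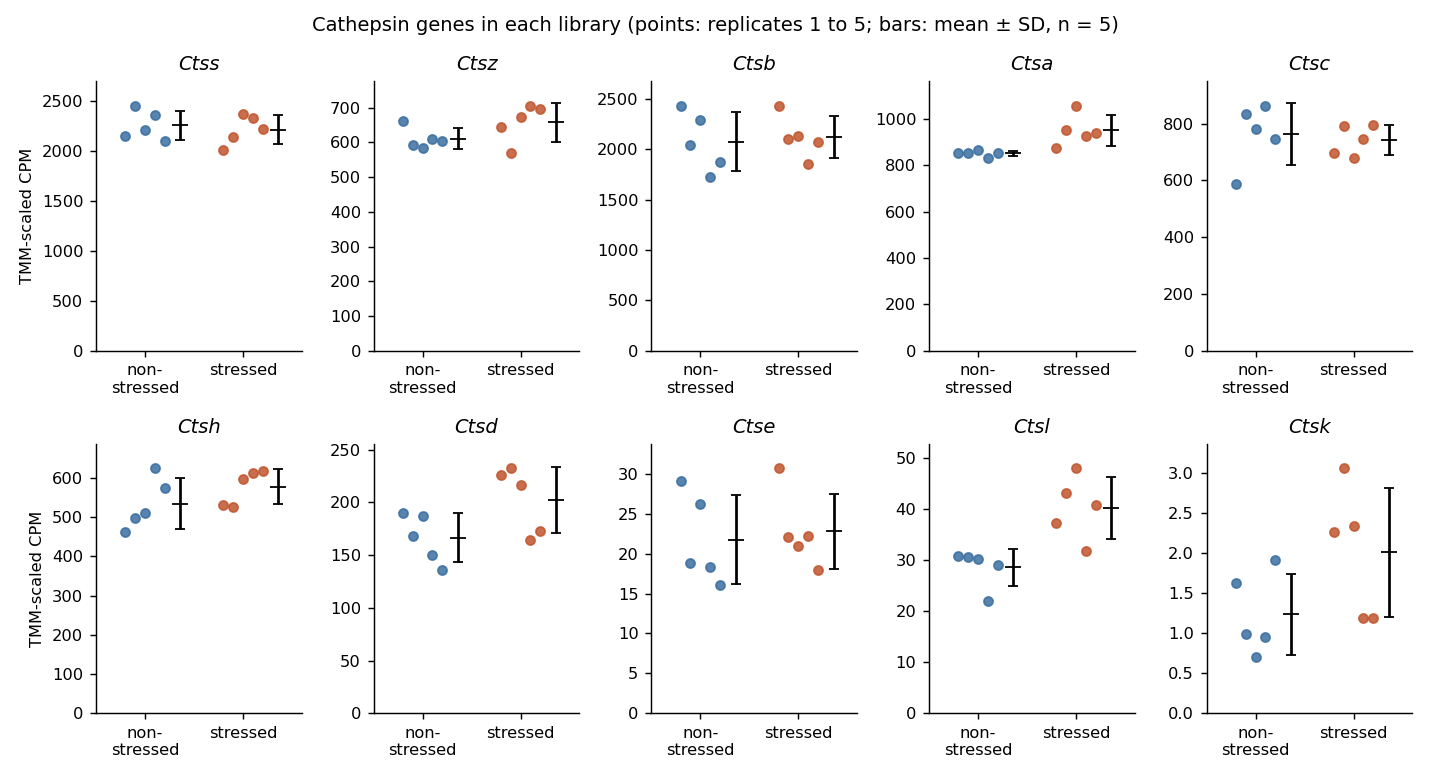
TMM-scaled CPM of the 10 cathepsin genes in each library, 1 panel a gene with its own axis from 0, points in the order of replicates 1 to 5 and bars for the mean ± SD (n = 5). The groups do not overlap for Ctsa and Ctsl, and Ctss, Ctsb and Ctsc overlap almost throughout.

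In all, 8 of 10 cathepsins had a positive log2 fold change and 2 (Ctsc and Ctss) a negative one, and the median was 0.11. Over all genes tested 50.9% were positive and the median was 0.0045. The pooled SD of the libraries' median cathepsin level was 0.11 on the log2 scale. It describes single libraries and the genes of middle level, so it is not an error of the median fold change, which was not tested.

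**Figure D3:**
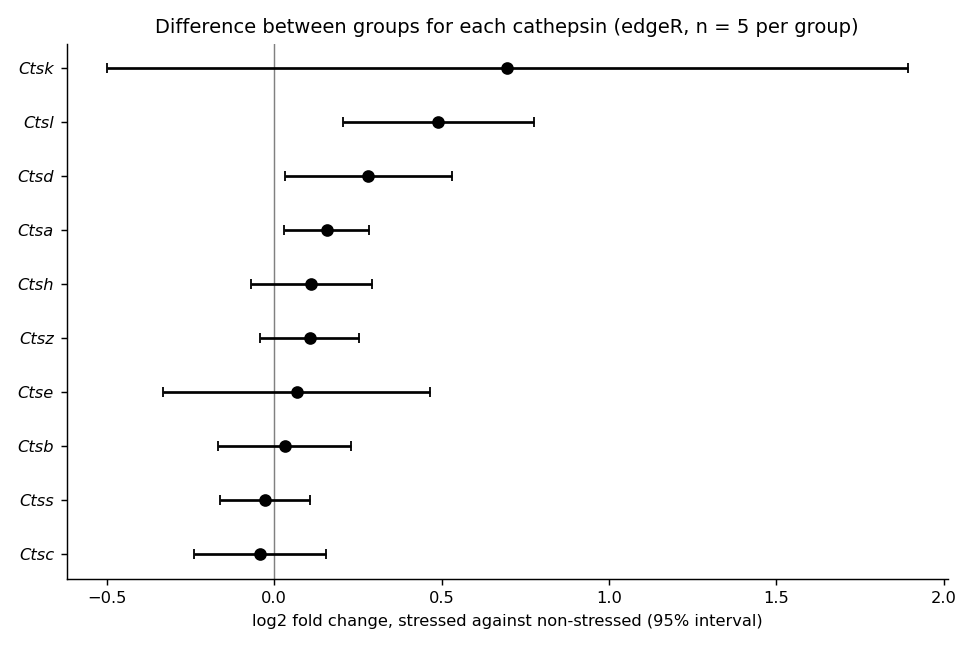
Log2 fold change of each cathepsin, stressed against non-stressed, from edgeR (points) with its unadjusted 95% interval (bars; n = 5 per group). The intervals of Ctsa (0.03 to 0.28), Ctsd (0.03 to 0.53) and Ctsl (0.21 to 0.78) do not reach 0, and that of Ctsk is the widest (-0.50 to 1.89).

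The cathepsins did not vary as 1 block from library to library. Stressed replicates 1, 2 and 3 were above the gene's mean over the 10 libraries for Ctsd (by 0.32, 0.35 and 0.25 on the log2 scale), Ctsl (0.15, 0.36 and 0.51) and Ctsk (0.62, 1.06 and 0.67), while stressed replicate 4 was below it for all 3 genes (-0.15, -0.08 and -0.31). Non-stressed replicate 4 was the lowest library for Ctsa, Ctsb and Ctsl and the highest for Ctsc and Ctsh. Non-stressed replicate 1 was the lowest for Ctsc and Ctsh and lay above the mean for Ctsb (0.22) and Ctse (0.42). In these 2 libraries Ctsc and Ctsh thus deviated in the direction opposite to Ctsb. The other exopeptidase genes did not share this. In non-stressed replicates 1 and 4, Ctsz deviated in the direction of Ctsb (0.07 and -0.05) and Ctsa was below its mean (-0.08 and -0.11).

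**Figure D4:**
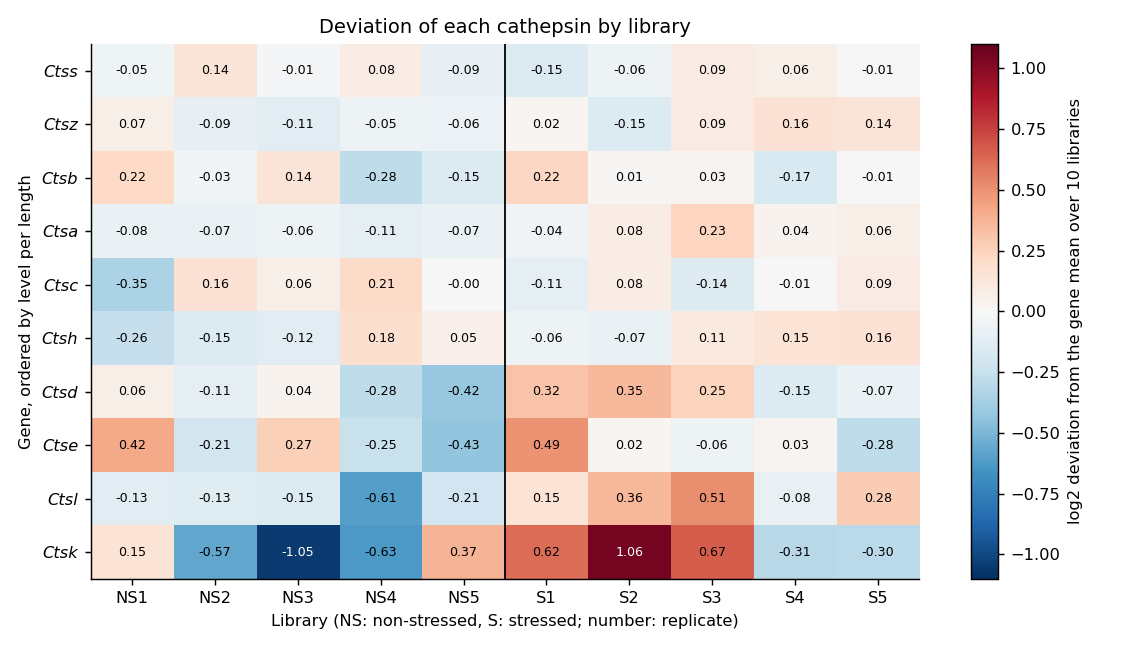
Deviation of each cathepsin (rows) in each library (columns) from the gene's mean over the 10 libraries, in log2 of TMM-scaled CPM, red above and blue below, with the value printed in each cell. Ctsk spans -1.05 to 1.06 and Ctss -0.15 to 0.14.

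Promoter sequence was searched in the 250 bases before the start sites that RefSeq gives on GRCm38.p6; 7 of 10 cathepsins matched an entry, all but Ctsb, Ctse and Ctsh. The hexamer CACGTG is the E-box core of the lysosomal element that the transcription factor TFEB and its relatives bind. It was in a window of 3 genes, Ctsa, Ctsd (at 2 places) and Ctsl, and in those of 6.86% of all 27025 genes with an entry (6.02% of 32851 windows). These 3 are shown, with the hexamer in capitals, because they are also the genes with an unadjusted p under 0.05; the choice of motif was made after those values were known, and a match is no evidence of binding.
Ctsa, chr2:164833749-164833772, plus strand, at the downstream of its 2 start sites: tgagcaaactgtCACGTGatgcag
Ctsd, chr7:142388055-142388077, minus strand: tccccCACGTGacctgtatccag
Ctsd, chr7:142387908-142387937, minus strand: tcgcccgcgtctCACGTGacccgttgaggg
Ctsl, chr13:64370739-64370768, minus strand: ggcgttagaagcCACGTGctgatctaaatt
Ctsc, Ctsk, Ctss and Ctsz held no CACGTG in their windows. The matches of Ctsa and Ctsl and that of Ctsd at chr7:142387908-142387937 lie inside the gene spans given above. They are thus upstream of a RefSeq start but not of the whole gene.

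The window of Ctss is printed whole, as that of the most abundant cathepsin. It held GAAA and again GAAA with 2 bases between, an element of the kind interferon regulatory factors bind, searched on both strands and shown in capitals, 21 bases before the start; 3.46% of all genes had it.
Ctss, chr3:95526536-95526785, plus strand: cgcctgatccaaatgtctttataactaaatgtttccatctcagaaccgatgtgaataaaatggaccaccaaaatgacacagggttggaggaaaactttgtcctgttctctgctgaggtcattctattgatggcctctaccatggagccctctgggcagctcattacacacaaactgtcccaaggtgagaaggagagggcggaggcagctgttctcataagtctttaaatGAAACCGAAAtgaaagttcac
The palindromic glucocorticoid response element, AGAACA and TGTTCT with 3 bases between, was in none of the 7 and in 0.0111% of all genes, and GAGGAAGT, an ETS-type motif searched on both strands, was in Ctsc alone of the 7, against 2.79% of all genes.

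The genes that act with the cathepsins were taken from lists written for the same part of the cell, and 0 members of any of these lists passed the adjusted threshold in edgeR. Where no count at an unadjusted p under 0.05 is given for a list below, it was 0. The partners of cathepsin A are the sialidase Neu1 and the beta-galactosidase Glb1, with which it forms a complex in the lysosome. Neu1 held 92.2, 87.9, 95.9, 101 and 108 CPM in non-stressed and 117, 135, 125, 112 and 114 CPM in stressed libraries. As for Ctsa, the lowest stressed value exceeded the highest non-stressed one, as it did in 0.547% of all genes tested. The log2 fold change was 0.31 (SE 0.08, unadjusted p = 0.00193, adjusted p = 0.684 in edgeR). This was not particular to the partners of cathepsin A. In the lists below, Gusb and Atp6ap1 were separated in the same direction. Atp6v1c1, of the V-ATPase, was separated in the opposite one, which also held 0.547% of all genes tested. Glb1 overlapped between the groups, at 39.0 ± 5.26 and 41.9 ± 7.23 CPM (SD, n = 5 each; log2 fold change 0.10, SE 0.13).

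Of the 39 acid hydrolases other than cathepsins, all tested, 28 were higher and 11 lower in stressed libraries, with a median of 0.06 against 0.0045 over all genes; 50.9% of all genes tested were higher. Of the 39, 4 had an unadjusted p under 0.05, all higher, against 2.59% of all genes tested. Gusb, the lysosomal beta-glucuronidase, was among them at 215 ± 13.3 and 248 ± 13.9 CPM (SD, n = 5 each); in edgeR its log2 fold change was 0.21 (SE 0.07, adjusted p = 0.829). At the other end Manba, beta-mannosidase, had a value of -0.19 (SE 0.10). Of 17 tested genes of the V-ATPase, the proton pump that acidifies the lysosome, 13 were higher and 4 lower (median 0.08, against 50.9% higher over all genes), with 2 at an unadjusted p under 0.05 in the direction that held 2.59% of all genes, Atp6v1e1 at 0.20 (SE 0.08) and Atp6ap1 at 0.14 (SE 0.06). The 15 lysosomal membrane genes were split into 7 higher and 8 lower around a median of -0.0015, and Lamp1 had 0.07 (SE 0.06). Only 1 of them had an unadjusted p under 0.05, in the lower direction, which held 2.95% of all genes tested. It was the nucleoside transporter gene Slc29a3 at -0.43 (SE 0.13, adjusted p = 0.778 in edgeR).

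Sorting and activation were represented by 15 tested genes, 11 higher and 4 lower, with a median of 0.04. The small mannose 6-phosphate receptor gene M6pr stood at 246 ± 18.5 and 260 ± 19.7 CPM (SD, n = 5 each; log2 fold change 0.08, SE 0.08). The large receptor gene Igf2r had a log2 fold change of 0.06 (SE 0.63). Psap, the precursor of the saposins, stood at -0.11 on the same scale (SE 0.05, adjusted p = 0.895). Legumain, Lgmn, which cleaves cysteine cathepsins to their mature form, had -0.05 (SE 0.14). Of the 12 MiT/TFE factors and their regulators 8 were higher and 4 lower (median 0.02), with Tfeb at 0.03 (SE 0.09) and Tfe3 at -0.03 (SE 0.09).

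The inhibitors were divided in direction, and most genes of the invariant chain and class II list were lower. Of 9 tested cysteine protease inhibitors 5 were higher and 4 lower, with a median of 0.01. Cst3, the secreted cystatin C, was abundant at 1299 ± 74.6 and 1324 ± 34.3 CPM (SD, n = 5 each; log2 fold change 0.03, SE 0.06), Cstb, its cytosolic relative, had -0.04 (SE 0.12) and Cst7, an endolysosomal inhibitor of cathepsin C, had means of 1.58 and 1.30 CPM. Of the invariant chain and class II list 9 of 10 were lower (median -0.48), 5 at an unadjusted p under 0.05 and lower, where 2.95% of all genes tested were, with Cd74, the invariant chain that Ctss and Ctsl trim, at -1.03 (SE 0.27, adjusted p = 0.684). Ifi30, the lysosomal thiol reductase of antigen processing, was the 1 member higher, at 0.14 (SE 0.08). Most markers of B and dendritic cells, which carry class II, had lower values beside them. All 10 B cell markers were lower in stressed libraries (median -0.29, summed 497 to 1048 CPM without stress and 373 to 686 CPM with it). Of 10 dendritic cell markers 7 were lower and 3 higher (median -0.22, summed 593 to 805 CPM and 600.1 to 725 CPM). Cd209a had -0.63 and Clec9a -1.08, while Flt3 was higher at 0.45. Over all genes tested 50.9% were higher. In edgeR 0 of both lists passed the adjusted threshold, and 0 B cell markers had an unadjusted p under 0.05. Of the dendritic cell markers 2 were lower at that p (2.95% of all genes tested) and 1 higher (2.59%). The part of these cells in the class II values was not tested. The highest library for Cd74, non-stressed replicate 2 (3704 CPM), was also the highest for Ctss. The other non-stressed libraries held 996 to 1814 CPM of Cd74 and the stressed ones 654 to 1122 CPM. For the class II gene H2-Aa the same library held 1327 CPM, against 265 to 497 CPM in the other non-stressed ones. The class II fold changes thus lean on 1 library, and they are not given without it. Of the granule serine proteases that Ctsc activates 5 of 10 were tested, 2 higher and 3 lower, 1 of them higher at an unadjusted p under 0.05 (2.59% of all genes tested). Prtn3 stood at 0.92 (SE 0.39, adjusted p = 0.874) and Ctsg at -0.24 (SE 0.83). Neutrophil markers summed to 811 to 2590 CPM in non-stressed and 1081 to 2379 CPM in stressed libraries. Of these 11 markers 8 were higher and 3 lower, and 1 was higher at an unadjusted p under 0.05 (2.59% of all genes tested). Their mean log2(CPM + 1) was 4.51 ± 0.967 in non-stressed and 5.06 ± 0.976 in stressed libraries (SD, n = 5 each), and their part was not tested.

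**Figure D5:**
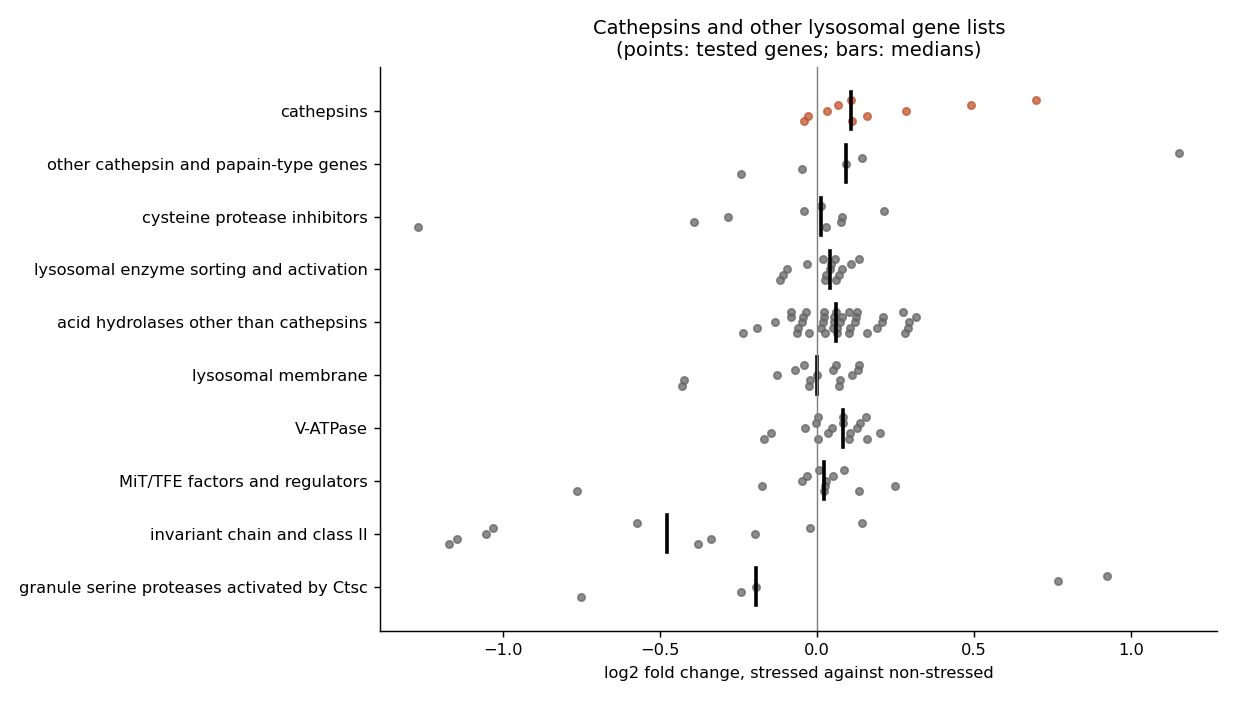
Log2 fold change, stressed against non-stressed, of every tested gene of the cathepsins (orange) and of 9 other lists (grey), with the median of each list as a black bar. The cathepsin median is 0.11, 7 of the 9 other lists lie between -0.0015 and 0.09, the granule serine proteases at -0.20 and the invariant chain and class II genes at -0.48.

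In a list of other cathepsin and papain-type genes 5 of 16 were tested, 3 higher and 2 lower with a median of 0.09. The 2 lower ones were the legumain gene Lgmn and the granule serine protease gene Ctsg. Ctso, a widely expressed cysteine cathepsin, stood at 40.2 ± 4.39 and 42.9 ± 5.38 CPM (SD, n = 5 each; log2 fold change 0.09, SE 0.12). Ctsf, another lysosomal member, had 398 reads in all and a log2 fold change of 1.15 with an SE of 0.81. The rodent placental cathepsin genes Ctsj, Ctsm, Ctsq, Ctsr, Cts3, Cts6, Cts7 and Cts8 had 0 reads in all 10 libraries.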

How the data were processed

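RNA was sequenced from 10 sorted mouse cell samples, with a PicoPure RNA kit and TruSeq Stranded libraries per the labels' protocols. The submitters' processing notes name the tools featureCounts, STAR and Trimmomatic and the build mm10; no version, annotation or strand setting is given. The deposited table holds raw counts per Ensembl gene, not normalized; 48058 of 48526 identifiers matched a symbol. Groups came from the sample titles. The counts were tested with edgeR 4.0.16 (R 4.3.3): filterByExpr (minimum count 10), TMM factors, intercept and group, quasi-likelihood F test, Benjamini-Hochberg over 13334 genes, threshold 0.05; the SE is the log2 fold change divided by the square root of F. The test was checked on simulated data. DESeq2 1.42.0 and limma-voom (limma 3.58.1) were alternatives. Gene positions, exon lengths and shared 50-base stretches are from GENCODE M21; TPM values were computed from the counts. The cathepsins, the lists and the motifs were chosen with earlier results of these data known. Named were all 10 cathepsins, 14 set genes of the pathway, and the 2 genes of each list with the smallest p per direction, not all of which are given. Genes outside that rule (the placental cathepsins, markers at 0, overlapping genes) were named after their values were seen.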

Additional observations from a re-analysis of the deposited data

Results flagged for a closer look

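Of 20 groups of 5 values (10 cathepsins in each group of libraries), 1 held a library far from the others by Dixon's criterion (critical value 0.71); chance marks about 1 in 20 such groups. Ctsl stood at 22.0 CPM in non-stressed replicate 4, and the gap to the next library, at 29.0 CPM, was 0.805 of the range of the group. Without that library the log2 fold change of Ctsl was 0.41 in place of 0.49.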

How the results depend on the processing

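Over 23 alternatives, 0 of 230 values for the 10 cathepsins passed the adjusted threshold; 218 kept their sign, and Ctsa, Ctsd, Ctsh, Ctsk, Ctsl and Ctsz did so throughout, with Ctsl at 0.36 to 0.56 and its lowest adjusted p, 0.167, in DESeq2. Signs turned for values near 0. With the neutrophil level as a covariate Ctsb was -0.0248 and Ctse -0.0604, and with the erythroid level Ctsb was -0.0721, Ctsc 0.00233 and Ctse -0.0187. With 1 library left out Ctsb ran from -0.0294 to 0.0896, Ctsc from -0.128 to 0.00491, Ctse from -0.0675 to 0.187 and Ctss from -0.0582 to 0.00132. The cathepsin median ran from 0.08 to 0.15. Over all genes 1 was called; DESeq2 called 19, limma-voom 2, edgeR without a low-count filter 10, with the B cell level as a covariate 4 and with the neutrophil level 14, and with 1 library left out 1 to 2. With the replicate block 4 genes and 0 cathepsins were called; same-numbered libraries correlated at -0.03 to 0.16, 4 of 5 pairs over 0.1, and 3 of 5 were closest to their own number. Replicates 1 and 5 were the Xist libraries in both groups. No label states a pairing, so the main fit did not use the numbers as pairs, and these values do not settle whether they mark pairs. With the block the SE of Ctsd was 0.07 in place of 0.12 (log2 fold change 0.28, adjusted p = 0.324 in edgeR). That of Ctsb was 0.05 in place of 0.09, while that of Ctsk was 0.71 in place of 0.56. By level per length, 8 of 10 cathepsins kept their rank with the longest transcript and 4 with the shortest principal one, a choice made after the data were seen. Depth limits Ctsk most, at 409 reads in all.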
